A study of Mus musculus with 4 samples.

Results

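This comparison set the follicular regulatory T cells (TFR cells) of Prdm1 knockout mice against those of control mice. It covered 22180 genes on 1 array per genotype, out of a series of 4 arrays and 41345 probes. The genes were those with a probe that the platform annotation gives to a single gene, and the brightest probe stood for a gene that had several. Both TFR samples were CD4+ cells sorted for PD1, CXCR5 and the YFP reporter of Foxp3 from mice that had received NP-OVA in CFA 7 days earlier. The control genotype was FoxP3YFP-Cre, in which the Foxp3 locus gives YFP and Cre. The knockout genotype was Prdm1fl/flFoxP3YFP-Cre, with the same reporter and Cre and with floxed Prdm1 alleles. Both genotypes therefore carried the Foxp3-driven Cre, and deletion was directed at cells that express Foxp3. The remaining 2 arrays held CXCR5- YFP+ regulatory T cells (non-TFR cells) of the same 2 genotypes, and appear below where the genotype difference is set beside that of TFR cells. The sex, the age and the count of mice behind an array were not stated in the sources used here.

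TFR cells are regulatory T cells that enter the B cell follicle, where they restrain follicular helper T cells and germinal centre B cells. They carry Foxp3, the defining transcription factor of regulatory T cells, together with Bcl6, the master regulator of follicular T cells. Prdm1 encodes Blimp-1, a transcriptional repressor that opposes Bcl6 in lymphocytes and is linked in regulatory T cells to effector functions such as interleukin-10 production.

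Values are log2 expression values after quantile normalization of the 4 arrays, and a difference is the knockout value minus the control value. A difference of 1 is 2-fold. With 1 array on each side there was no replicate, no error and no test, and each difference describes these arrays. Genes were called expressed where the 4-array mean exceeded 5.91, the median of all genes, which left 11090. Since the files hold no detection calls, no fold is given where a value lay below that limit. RNA from sorted bulk cells cannot tell fewer cells of a kind from less RNA per cell.

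The targeted gene differed less than the leading genes. In TFR cells the control had Prdm1 at 8.21 and the knockout at 7.32 (-0.89). In non-TFR cells it was at 7.80 and 7.59. Whether the Prdm1 probes lie inside the deleted part was not stated in the sources used here, so this value does not check the deletion. Foxp3 was at 12.36 in the control and 11.87 in the knockout, a difference of -0.49 that only 2.39% of all genes lay at or below. The gate genes Cxcr5, the follicle-homing chemokine receptor, and Pdcd1, which encodes PD1, were 0.87 and 0.82 higher in the knockout, although both genotypes were sorted on these proteins. Cd4 differed by 0.10. Foxp3, Cxcr5, Pdcd1 and Cd4, the markers of the sort, were thus well above the limit in both TFR arrays. Xist lay between 10.13 and 11.44 in the 4 arrays, and the Y-linked genes Eif2s3y, Kdm5d and Uty lay between 6.75 and 8.23, with differences of 0.38, 0.36 and 0.68 in TFR cells.

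The 2 TFR arrays were close for most genes. The SD of the differences across expressed genes was 0.27, and the middle 95% lay between -0.50 and 0.56. Among the 11090 expressed genes 49 (0.442%) were at least 2-fold higher in the knockout and 26 (0.234%) were at least 2-fold lower. Both TFR values lay above the expression limit in 41 of the 49 and in 21 of the 26. Over all 22180 genes, dim ones included, the counts were 64 (0.289%) and 36 (0.162%). By direction alone, 52.4% of all genes were higher and 47.6% lower in the knockout, with a median of 0.01, and the list counts below stand beside these shares. Brightness differed between the directions: 41 of the 49 higher genes had a mean below the 75th percentile of all genes and 8 a mean above it, against 12 and 14 of the 26 lower genes. The genes nearest the threshold were Cd22 (1.001) just inside it and Slc16a10 (0.996) just outside it among higher genes, and Ifit1bl1 (-1.01) and Bach2 (-0.996) among lower genes.

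**Figure D1:**
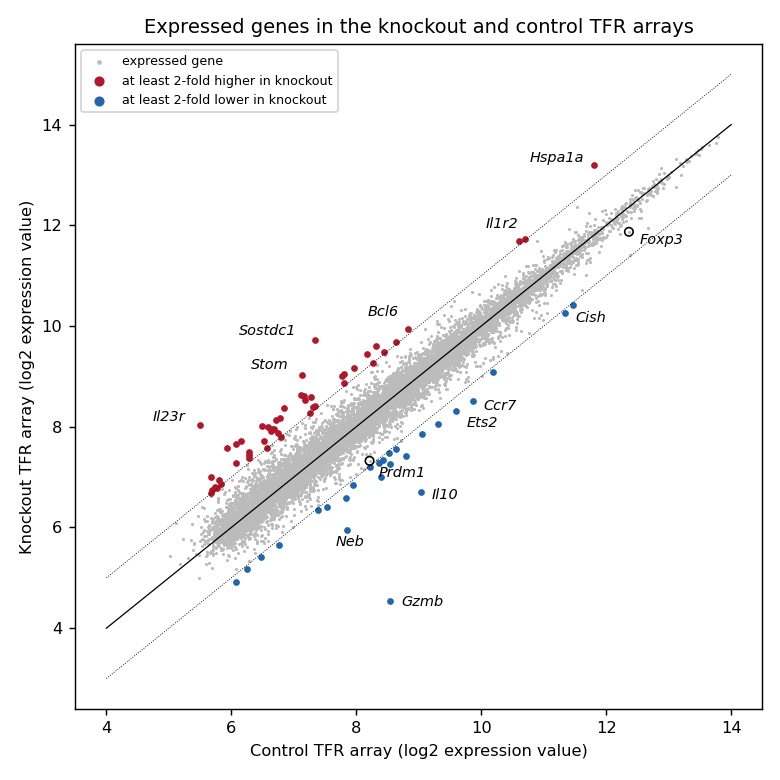
Each point is an expressed gene, with its log2 expression value in the control TFR array on the horizontal axis and in the knockout TFR array on the vertical axis; the solid line marks equality, the dotted lines mark 2-fold, red points are at least 2-fold higher and blue points at least 2-fold lower in the knockout, and open circles mark Prdm1 and Foxp3. Most genes lie between the dotted lines, Gzmb (8.54 and 4.55) stands farthest below them, and Il23r and Sostdc1 stand farthest above them.

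The 2 lowest differences belonged to Gzmb and Il10, genes of regulatory T cell effector function. Gzmb, the cytotoxic serine protease granzyme B, was at 8.54 in the control and 4.55 in the knockout, a difference of -3.998 whose knockout value lay below the expression limit. Il10, the anti-inflammatory cytokine interleukin-10, was at 9.03 and 6.70 (-2.33, 5.03-fold lower). Of the 7 measured suppressor mediators and interleukin-10 receptor genes, 0 were higher and 7 lower in the knockout, with a median of -0.39, against 0.01 over all genes. Among them the secreted mediator Fgl2 was at 8.17 and 7.20 (-0.97, 1.96-fold lower), Tgfb1 at 11.74 and 11.35 (-0.39), the interleukin-10 receptor chain Il10ra at 7.86 and 7.54 (-0.31), and the interleukin-35 chain Ebi3 at 8.14 and 7.86 (-0.29). The interleukin-10 receptor chain Il10rb was nearly level at 10.73 and 10.71, and Il12a lay below the limit at 4.95 and 4.54. The list thus shared a direction, in part by small or dim differences, whereas Il10 alone passed 2-fold.

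Granzyme B stood apart within its family. Gzmc was at 4.93 and 4.14, Gzmd at 3.28 and 3.05, Gzmf at 3.69 and 3.67, Gzmg at 3.60 and 3.49, Gzmn at 4.05 and 4.12, and Gzma at 5.44 and 5.47, each below the expression limit in both arrays. Gzmk was at 7.05 and 6.88 and Gzmm at 6.32 and 6.19. The pore-forming protein perforin, Prf1, was at 6.26 and 6.18, close to the limit in both TFR arrays, whereas in non-TFR cells it was at 8.05 and 7.13 (-0.92). Other genes of cytotoxic cells were lower: the death ligand Fasl was at 7.83 and 6.59 (-1.24, 2.36-fold lower), the cysteine protease inhibitor Ctla2a at 9.30 and 8.05 (-1.26, 2.39-fold lower), and the granule membrane gene Nkg7 at 10.42 and 9.46 (-0.96). Ctla2b, a close relative of Ctla2a, was at 6.76 and 6.68, and the probes may not fully separate Ctla2a from Ctla2b. In all, 14 of 19 granzyme and cytotoxic genes were lower, 3 of them at least 2-fold, and 5 were higher. Serpinb9, an inhibitor of granzyme B, was at 7.41 and 7.93.

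Among the 26 genes that were 2-fold lower, 16 had a RefSeq promoter sequence in the set searched, taken as the 250 bases before an annotated start. That set left out the promoters of a whole chromosome, so every count of promoters here is over the rest. The AP-1 motif TGANTCA, the site of Fos and Jun family factors searched on both strands, was in 3 of these (18.75%), in 3 of the 38 promoters available for the 2-fold higher genes (7.89%: Adssl1, Cd68 and Gpr35), and in 5.19% of those of the 8793 expressed genes with a promoter. The stretches of the 3 lower genes are shown because these are all the lower genes with a match. Each has 20 bases on either side of the motif, which is in capitals. The stretches are on the minus strand of GRCm38.p6, written 5′ to 3′: Gzmb at chr14:56262366-56262412, with the motif beginning 58 bases before the start, Ctla2a at chr13:60936728-60936774, and Ecm1 at chr3:95739607-95739653, 64 bases before the start.
Gzmb: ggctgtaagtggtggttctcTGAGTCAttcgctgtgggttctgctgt
Ctla2a: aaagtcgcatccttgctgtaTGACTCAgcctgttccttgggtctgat
Ecm1: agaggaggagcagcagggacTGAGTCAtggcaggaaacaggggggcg
The Blimp-1 core motif GTGAAAG was in 0 of these 16 promoters, in 0 of the 38 of higher genes, and in 3.54% of those of expressed genes. A match is a run of letters and not a bound site, and these windows leave out more distant elements.

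Regulatory T cell identity genes were mostly lower. Of 22 measured Treg core genes 17 were lower in the knockout and 5 higher, with 0 past 2-fold in either direction and a median of -0.28. Il2ra, the high-affinity interleukin-2 receptor chain CD25, was at 11.67 and 11.004 (-0.67). Lrrc32, which encodes the surface docking protein for latent TGF-beta, was at 11.05 and 10.27 (-0.78), and the ectoenzyme Entpd1 (CD39) was at 8.21 and 7.47 (-0.74). The orphan receptor Gpr83 was at 9.79 and 8.99 (-0.80), and Klrg1, a receptor of terminally differentiated cells, at 9.79 and 8.92 (-0.87). The shift was not shared by all: the inhibitory receptor Tigit was at 11.41 and 11.92 (0.52 higher), Gpr15, a gut-homing receptor, at 6.02 and 6.95 (0.93 higher), and the Helios gene Ikzf2 at 10.40 and 10.52.

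Genes linked to interleukin-2 signalling were mixed. Cish, an inhibitor induced by STAT5, was at 11.33 and 10.27 (-1.07, 2.10-fold lower), and its relative Socs2 was at 7.39 and 6.75 (-0.64). The transcription factor genes Stat5a (8.86 and 8.92) and Stat5b (10.19 and 10.20) were nearly level between the arrays. Of the other receptors of the common gamma chain family, Il2rb was at 12.98 and 12.95, Il7r at 9.35 and 9.21, Il15ra at 7.06 and 7.00, Il4ra at 10.58 and 10.13, and Il9r at 7.56 and 7.92. Il13ra1, which joins Il4ra in a receptor for interleukin-4 and interleukin-13, went the other way, from 5.93 to 7.57 (1.64 higher, 3.12-fold).

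The wider effector Treg list was split. Of 27 measured members 17 were lower and 10 higher, with a median of -0.09 and 3 at least 2-fold lower. The third of these, beside Gzmb and Il10, was the inflammatory chemokine receptor Ccr2 at 6.27 and 4.98 (-1.29), whose mean over the arrays lay below the expression limit. The chemokine Ccl5 (9.75 and 9.09), the costimulatory receptor Tnfrsf9 (11.49 and 11.04) and the transcriptional regulator Id2 (8.69 and 8.20) were also lower. The inhibitory receptor Lag3 was at 8.65 and 9.40 (0.75 higher), and the chemokine receptors Ccr4 and Ccr6 were 0.59 and 0.57 higher. The transcription factors Gata3 and Tbx21 were each 0.22 lower.

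**Figure D2:**
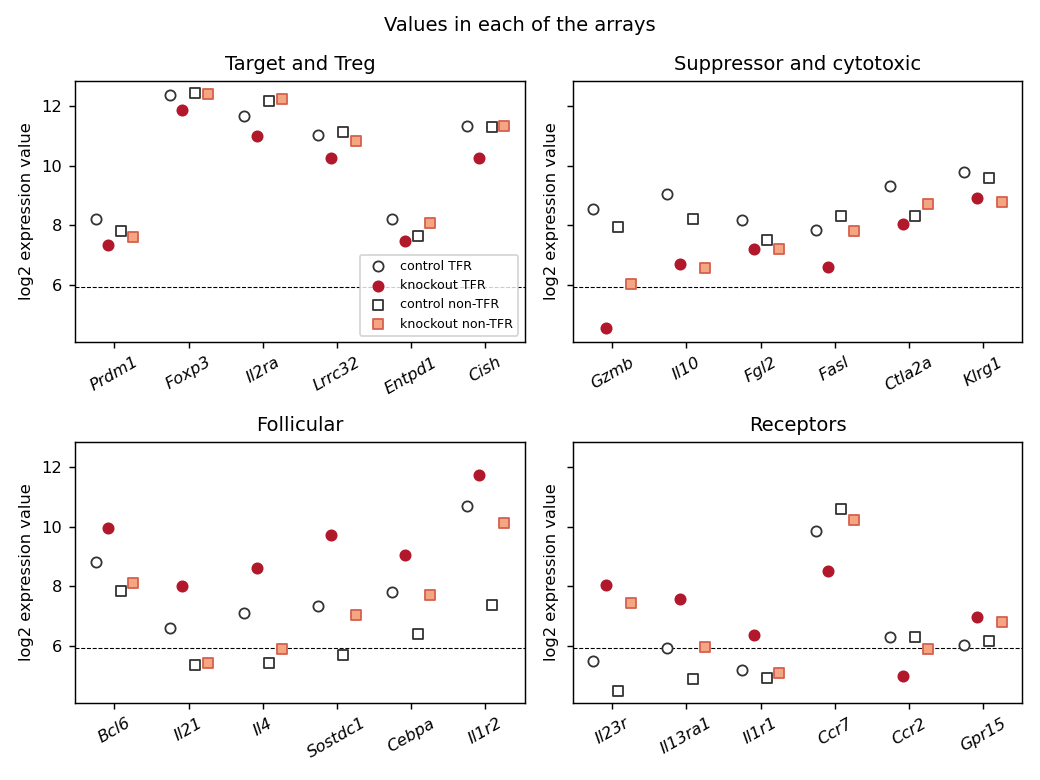
Points are log2 expression values of single genes in the 4 arrays (circles TFR, squares non-TFR, open control, filled knockout), and the dashed line is the expression limit of 5.91. Gzmb and Il10 are lower in the knockout of both populations, Cish, Il2ra and Ctla2a are lower in the knockout of TFR cells and not of non-TFR cells, and Il21 is above the limit in both TFR arrays and below it in both non-TFR arrays.

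Genes of naive and recirculating T cells were lower in the knockout. Of 16 measured members 14 were lower and 2 higher, with a median of -0.36 and 1 past 2-fold. Ccr7, which guides cells to the T cell zone, was at 9.86 and 8.52 (-1.34, 2.53-fold lower). The repressor Bach2 was at 8.33 and 7.34 (-0.996), Klf2, which sustains the egress receptor S1pr1, at 9.34 and 8.58 (-0.76), and the chromatin organizer Satb1 at 8.70 and 8.02 (-0.68), while S1pr1 itself was nearly level at 10.10 and 10.08. The follicle-confining receptor S1pr2 was at 8.29 and 8.84 (0.54 higher). Id3, an inhibitor of E proteins, was at 8.57 and 9.02 (0.45 higher).

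Genes induced by the T cell receptor were lower as well. Of 22 measured immediate early genes 18 were lower and 3 higher, with a median of -0.27. The phosphatase Dusp5, which limits ERK, was at 11.47 and 10.41 (-1.06, 2.09-fold lower), and the nuclear receptors Nr4a1 and Nr4a3 were at 12.38 and 11.40 (-0.98) and at 10.92 and 10.16 (-0.76). The AP-1 members were unequal: Fosl2 was at 9.75 and 8.94 (-0.81) and Junb at 13.11 and 12.77 (-0.34), against Fos at 9.47 and 9.45 and Jun at 12.30 and 12.37. The components of the receptor itself did not share this direction, with 11 of 15 signalling genes higher, a median of 0.09 and values for Cd3e of 12.93 and 13.04. Outside the list, the transcription factor Ets2 was at 9.59 and 8.32 (-1.28, 2.42-fold lower).

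Interferon response genes had a median of -0.28, with 17 of 22 lower and 0 past 2-fold. Oas2 was at 6.40 and 5.71 (-0.69), Xaf1 at 8.72 and 8.08 (-0.65) and Rtp4 at 9.42 and 8.86 (-0.56). The ubiquitin-like Isg15 was at 9.99 and 10.38 and Mx2 at 5.58 and 6.15, both higher in the knockout. Related genes outside the list, Ifi208 (7.94 and 6.85) and Ifit1bl1 (8.21 and 7.20), were at least 2-fold lower.

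On the other side, the follicular programme was higher in knockout TFR cells. Of 25 measured members 23 were higher and 2 lower, with a median of 0.62 against 0.01 over all genes, and 6 were at least 2-fold higher. This list, which includes Sostdc1, Cebpa and Il1r2, was chosen with earlier results of these data known, so its counts are not independent of them. In non-TFR cells 23 of the 25 were higher in the knockout as well, with a median of 0.41. Bcl6 was at 8.82 in the control and 9.94 in the knockout (1.12, 2.17-fold). The cytokines through which follicular helper cells support B cells were higher, Il21 at 6.59 and 8.004 (1.41, 2.66-fold) and Il4 at 7.11 and 8.63 (1.51, 2.86-fold). Sostdc1, a secreted antagonist of BMP and Wnt signals, was at 7.33 and 9.72 (2.39, 5.23-fold), and the transcription factor Cebpa at 7.80 and 9.04 (1.24, 2.36-fold).

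Further members were higher by less than 2-fold. They included the inhibitory receptor Btla (9.29 and 10.11), the adaptor SAP, Sh2d1a (10.39 and 11.002), the transcriptional coactivator Pou2af1 (7.28 and 8.001), and the transcription factors Tox2 (8.71 and 9.38) and Ascl2 (6.28 and 7.00). Maf was at 10.16 and 10.71, but a second, dimmer probe gave a difference of -0.48 against 0.55, so that its direction rests on the choice of probe. Not all members were higher: Cd200 was at 9.997 and 9.96 and Tnfrsf4 at 12.44 and 12.37. Among other transcription factors, Hif1a was at 11.53 and 12.37 (0.84 higher; a dim second probe gave -0.27), Vdr, the vitamin D receptor, was 1.09 higher, and Nfia was 1.06 higher.

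Bcl6 also has matches to TTCNNNGAA, the spaced palindrome of STAT factors that overlaps the site of Bcl6 itself, before 2 of its annotated starts. There were 4 such matches, 3 of them close together before 1 start, and 1 stretch is shown for each start because Bcl6 is a follicular transcription factor that was higher; TTCNNNGAA was in 6.99% of the promoters of expressed genes and in 3 of the 38 available for higher genes (7.89%). Both stretches are on the minus strand of chromosome 16 in GRCm38.p6, at chr16:23981423-23981471 and chr16:23988942-23988990, with the motif in capitals.
Bcl6, first stretch: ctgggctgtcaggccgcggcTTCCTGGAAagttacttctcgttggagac
Bcl6, second stretch: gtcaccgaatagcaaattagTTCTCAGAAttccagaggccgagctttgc
As with the AP-1 motif, a match says that the letters are present and nothing on occupancy.

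Cytokine receptor genes held the highest difference of the expressed genes. Il23r, the receptor chain for interleukin-23, was at 5.49 in the control, below the expression limit, and 8.04 in the knockout (2.55). Its partner Il12rb1 was at 8.98 and 8.96, and Il12rb2, which takes the place of Il23r in the interleukin-12 receptor, was at 4.67 and 4.86. The interleukin-6 receptor genes Il6ra (11.05 and 11.06) and Il6st (11.71 and 11.70), Il27ra (11.03 and 11.11), Il17ra (10.38 and 10.12) and Il21r (10.95 and 10.86) differed by less than 0.27. In this list of 8 the difference was thus that of Il23r alone. The cytokines Il17a (5.73 and 5.55), Il17f (6.02 and 6.29) and Il22 (2.69 and 2.80) were near or below the limit in both arrays.

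In the interleukin-1 family 7 of 11 genes were higher, with a median of 0.30. The decoy receptor Il1r2 was at 10.70 and 11.73 (1.03, 2.04-fold), the receptor antagonist Il1rn at 7.53 and 8.44 (0.91), and the signalling receptor Il1r1 at 5.19 and 6.34 (1.15). The accessory chain Il1rap was at 7.60 and 7.42. Il18r1 (8.18 and 8.57), Il18rap (6.12 and 6.70) and Sigirr (10.21 and 10.48) were higher by less than 2-fold. The ligands Il1a (3.83 and 3.57), Il1b (4.51 and 4.07) and Il33 (4.31 and 4.61) were below the limit in both arrays, and Il18 was at 6.64 and 6.52. Of the 17 helper cytokines 10 were higher, 2 at least 2-fold, and Ifng was the lowest at 8.71 and 7.93 (-0.79).

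Some of the largest differences belonged to genes whose mean over the 4 arrays lay below the limit. There were 25 such 2-fold genes, 15 higher and 10 lower, and in 8 of the 15 the knockout TFR value lay above the limit. Vwde, a gene for a secreted protein with a von Willebrand factor type D domain, was at 4.85 in the control and 8.45 in the knockout of TFR cells, and at 4.61 and 4.44 in the corresponding non-TFR arrays. Its difference of 3.60 exceeded that of Il23r and was the highest of all measured genes. The mucin gene Muc16 was at 4.94 and 7.79 in TFR cells (2.85) and at 4.59 and 5.78 in non-TFR cells. The prohormone convertase gene Pcsk1 was at 5.09 and 6.66 in TFR cells (1.58) and at 5.16 and 6.61 in non-TFR cells. Hc, which encodes complement C5, was at 5.24 and 6.73, and the adenylate kinase gene Ak4 at 5.57 and 6.90. These genes were named after their values were seen, and the control values were not shown to be above background. Vwde was bright in the knockout TFR array alone, and without a second array a fault of that array cannot be told apart from a difference between genotypes.

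The other genes among the 20 highest came from varied functions. Stom, a membrane scaffold protein, was at 7.13 and 9.03 (1.91, 3.75-fold). Transporters were among them, with the sodium-calcium exchanger Slc24a3 at 6.15 and 7.73 (1.57) and the amino acid transporter Slc7a10 at 8.32 and 9.61 (1.29). Genes better known from neural or epithelial tissue were present too, among them the endothelin-converting-enzyme-like Ecel1 at 6.50 and 8.02 (1.52), the shootin gene Shtn1 at 6.07 and 7.66 (1.59), the keratin Krt17 at 7.16 and 8.62 (1.46), the matrix protein nephronectin, Npnt, at 6.78 and 8.16 (1.38), and the transcription factor Arnt2 at 7.18 and 8.53 (1.35). The paired genes Tmem176a (6.64 and 7.91) and Tmem176b (6.29 and 7.50) were 1.27 and 1.21 higher. The G protein subunit Gna14 was 1.32 higher, and the kinase-like Nrbp2, the ubiquitin ligase genes Rnf157 and Mid2 and the predicted family member Speer4a were 1.51, 1.41, 1.30 and 1.34 higher. The neuropeptide gene Gal, just below the 20 highest, was at 6.69 and 7.96.

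The remaining genes among the 20 lowest included structural, signalling and matrix genes. Neb, the giant muscle protein nebulin, was at 7.84 and 5.95 (-1.89, 3.71-fold lower). Arhgap20 was at 8.40 and 7.00 (-1.39), the anchoring protein gene Lad1 at 8.80 and 7.42 (-1.38), and the glutathione transferase Gsta4 at 9.05 and 7.86 (-1.19). Ecm1, an extracellular matrix protein, was at 10.18 and 9.08 (-1.10), the myeloid-type receptor Treml2 at 8.37 and 7.27 (-1.10) and the scaffold Cnksr3 at 8.42 and 7.35 (-1.08). Sox4 was at 6.48 and 5.41 (-1.07), and its second, dimmer probe gave -0.01. Dse, Slc28a2b and Defa40 had knockout values below the limit, with differences of -1.16, -1.11 and -1.07. The guide RNA gene Scarna17 was 1.13 lower on the log2 scale, and its second, dimmer probe gave -0.61.

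Cell cycle genes had no common direction in TFR cells. Among 31 measured members 17 were higher and 14 lower, with a median of 0.05 and differences between -0.34 (Ube2c) and 0.33 (Cdk1). Mki67 was at 11.31 and 11.37. In non-TFR cells the same 31 genes were all higher in the knockout, with a median of 0.60.

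Metabolic and stress genes differed by small amounts except at 1 locus pair. Of 14 glycolysis genes 13 were higher, with a median of 0.21, among them Pgk1 (9.97 and 10.42), Pfkl (7.98 and 8.39) and the lactate exporter Slc16a3 (6.46 and 6.90). Oxidative phosphorylation genes had a median of 0.02 with 11 of 21 higher, cholesterol synthesis genes one of -0.00 with 6 of 13 higher, and ribosomal protein genes one of -0.07 with 17 of 21 lower. The inducible heat shock genes Hspa1a (11.81 and 13.19) and Hspa1b (10.60 and 11.69) were 1.38 and 1.09 higher, whereas the constitutive Hspa8 was at 12.59 and 12.65 and Dnajb1 at 9.70 and 9.93. Hspa1a and Hspa1b are nearly identical and cannot be separated here. Of 15 apoptosis and survival genes 10 were lower, led by the death-promoting Bcl2l11 (Bim) at 7.74 and 6.94 (-0.80).

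**Figure D3:**
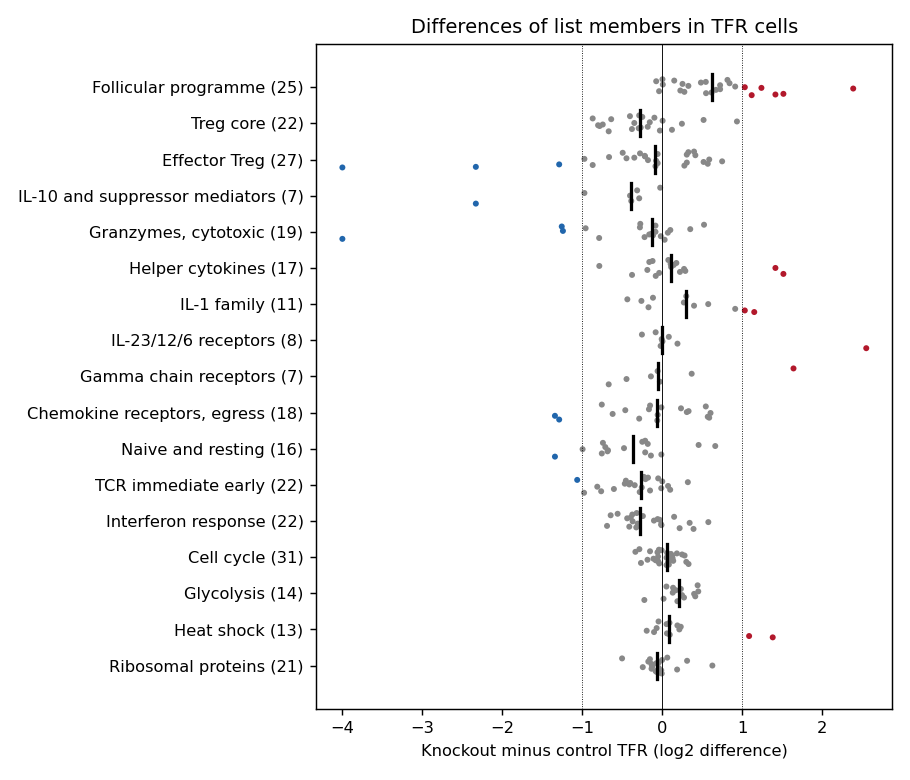
Each point is a measured member of a gene list, placed by its knockout minus control log2 difference in TFR cells; the number of members follows each name, black bars are medians, dotted lines mark 2-fold, and red and blue points lie past them. The follicular programme (median 0.62) lies farthest to the right of the lists drawn, while suppressor mediators (-0.39), naive (-0.36), Treg core (-0.28), interferon (-0.28) and immediate early genes (-0.27) lie to the left of 0. The lists were chosen with earlier results of these data known. Marker lists are not drawn, among them the overlapping list of conventional follicular helper genes (median 0.92).

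Inhibitory and costimulatory receptors had no common direction in TFR cells. Of 10 inhibitory receptors 4 were higher (Btla, Lag3, Tigit and Vsir) and 6 lower, with a median of -0.06. Of 12 costimulatory genes 5 were higher and 7 lower, with a median of -0.11, from Tnfrsf9 at -0.45 to Tnfsf14, which encodes the ligand LIGHT, at 0.71. Among 18 chemokine receptor and egress genes 7 were higher, and Ccr7 and Ccr2 were the 2 past 2-fold. Of 16 measured genes that earlier studies reported as Blimp-1 targets of repression, 6 were higher and 10 lower, with Il23r and Bcl6 past 2-fold upward and Ccr7 past 2-fold downward.

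Markers of B cells and of myeloid cells were mostly dim, and the other marker lists were partly expressed. Of 9 B cell markers 2 were expressed: Cd22, an inhibitory receptor, was at 8.27 and 9.27, and Cd79b at 8.42 and 8.19. The defining B cell gene Ms4a1 was at 4.02 and 3.98, and Cd79a was at 5.59 and 5.37. The B cell kinase Blk (5.28 and 6.11) and the B cell transcription factor Pax5 (5.69 and 6.10) had a mean below the limit and knockout TFR values above it. Of 12 myeloid and dendritic markers 1 was expressed, the lysosomal Cd68 at 7.97 and 9.17 (1.20 higher), while Lyz2 (4.46 and 4.39) and Csf1r (5.21 and 5.26) were below the limit. The list medians were 5.28 and 5.37 for B cells and 5.10 and 5.12 for myeloid cells in control and knockout TFR cells. Plasma cell markers had a median level of 6.10 and 6.17, CD8 and NK cell markers one of 5.602 and 5.76, and germinal centre B cell markers, which share Bcl6, S1pr2 and Fas with T cells, one of 6.78 and 6.98. Expressed members numbered 3 of 6, 3 of 8 and 3 of 6 in these lists, in that order. Among them were Xbp1 at 9.91 and 9.90, Cd8b1 at 8.73 in both TFR arrays, Nkg7 at 10.42 and 9.46, and Eomes at 7.09 and 6.53. Other members were below the limit in both TFR arrays: Cd8a (5.36 and 5.41), Ncr1 (4.91 and 4.85), Klrd1 (3.52 and 3.71) and Klrc1 (4.20 and 3.93). So were the plasma cell markers Jchain (4.13 and 3.87) and Tnfrsf17 (4.62 and 4.88). Klrb1c (5.85 and 6.12) and Sdc1 (6.07 and 6.38) had a mean below the limit. Of the 6 genes of conventional follicular helper cells other than the gate genes, 5 were higher in the knockout, 3 at least 2-fold, with a median of 0.92. Those 5, Cd40lg, Il21, Il4, Bcl6 and Ascl2, are also members of the follicular programme above. Their values repeat part of that list and are not separate support for it. Among the follicular helper genes Il2, which regulatory T cells make little of, was at 4.13 and 4.05, and Cd40lg was at 8.71 and 8.86. The part of such cells in the follicular differences was not tested.

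The genotype difference in TFR cells was set beside that in non-TFR cells, which rests on the other 2 arrays and shares none with it. In non-TFR cells 86 expressed genes (0.775%) were at least 2-fold higher in the knockout and 14 (0.126%) at least 2-fold lower. Of the 49 genes 2-fold higher in TFR cells, 44 were higher in non-TFR cells too (89.8%, against 55.7% of all expressed genes), and 14 passed 2-fold there (28.6%). Of the 26 lower genes, 24 were lower in non-TFR cells (92.3%, against 44.2% of all expressed genes), and 4 passed 2-fold (15.4%). The expression limit was set on the mean of all 4 arrays, non-TFR ones included, so the filter itself bears on these shares. Genes below it that were 2-fold apart in TFR cells and ran the other way in non-TFR cells are listed further on. The 14 shared higher genes were Il23r, Sostdc1, Stom, Il13ra1, Nrbp2, Krt17, Gna14, Mid2, Slc7a10, Cebpa, Sema6d, Il1r2, Mmp25 and Cd22, and the 4 shared lower genes were Gzmb, Il10, Neb and Sox4. Across the 11090 expressed genes Pearson's r between the differences was 0.35 and Spearman's rank coefficient 0.28; genes are not independent replicates, and all 4 arrays were normalized together.

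The sizes differed between the populations for many members, and none of these differences of differences could be tested. Il10 differed by -2.33 in TFR cells and -1.67 in non-TFR cells. Gzmb differed by -1.93 in non-TFR cells (7.94 and 6.01), which is not set against its TFR difference because the knockout TFR value lay below the limit. Il1r2 went the other way, with 1.03 in TFR cells and 2.76 in non-TFR cells, where its control value was 7.35. Bcl6 was 1.12 higher in TFR cells and 0.25 higher in non-TFR cells. Cish differed by -1.07 and 0.03, Ccr7 by -1.34 and -0.38, and Lad1 by -1.38 and -0.18. Il2ra was lower in knockout TFR cells (-0.67) and nearly level in non-TFR cells (12.17 and 12.24). Of 22 Treg core genes 20 had a lower difference in TFR than in non-TFR cells, where 15 of 22 were higher in the knockout and the median was 0.17. Of the 27 effector Treg genes 25 had a lower difference in TFR cells, with a median of 0.49 in non-TFR cells, and of 22 immediate early genes 19 did. Over all genes 52.9% had a lower difference in TFR cells, and so did 14 of 25 follicular and 10 of 16 naive genes. The naive genes were lower in the knockout of non-TFR cells too, 14 of 16, with a median of -0.40.

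**Figure D4:**
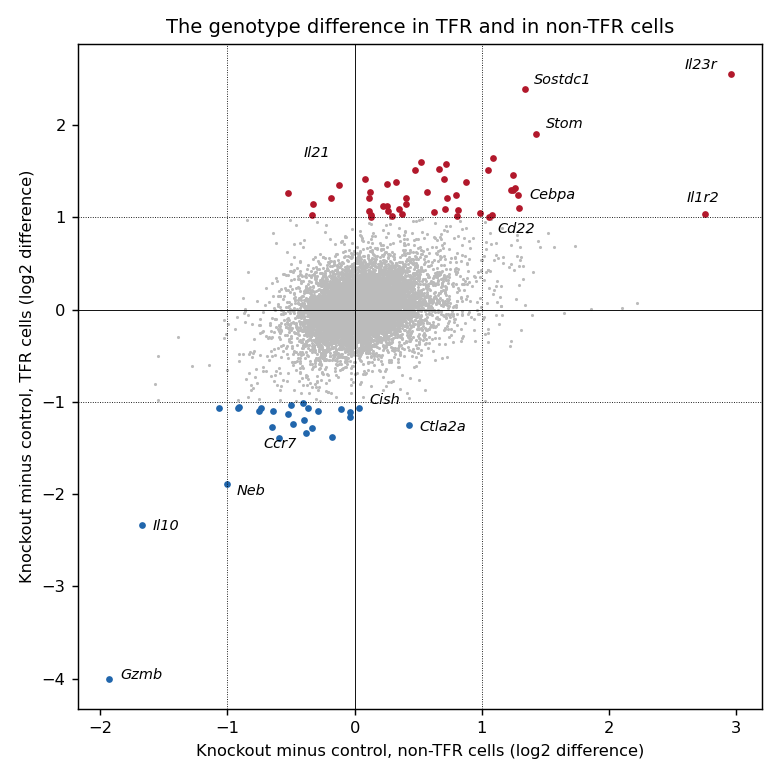
Each point is an expressed gene, with its knockout minus control log2 difference in non-TFR cells on the horizontal axis and in TFR cells on the vertical axis; dotted lines mark 2-fold, and red and blue points are 2-fold higher and lower in TFR cells. Il23r, Sostdc1 and Stom are high and Gzmb, Il10 and Neb are low on both axes, whereas Ctla2a is lower in the knockout of TFR cells and higher in that of non-TFR cells.

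The genes around Prdm1 on chromosome 10 showed no common shift. Of the 10 measured genes before and the 10 after it, 11 were expressed, and their differences in TFR cells lay between -0.38 and 0.33 with a median of 0.02, none past 2-fold. The nearest expressed protein-coding genes, the autophagy factor Atg5 and the peptidase Prep, were at 9.66 and 9.48 and at 9.79 and 9.93. Cd24a, the ninth gene before Prdm1 and below the expression limit, was lower in the knockout of both populations, at 6.10 and 5.19 in TFR cells (-0.91) and 6.50 and 5.63 in non-TFR cells (-0.86); its second, dimmer probe gave 0.00 in TFR cells. The inhibitory receptor Lilrb4a, the tenth gene after it, was 0.38 lower in knockout TFR cells and 0.71 higher in knockout non-TFR cells.

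**Figure D5:**
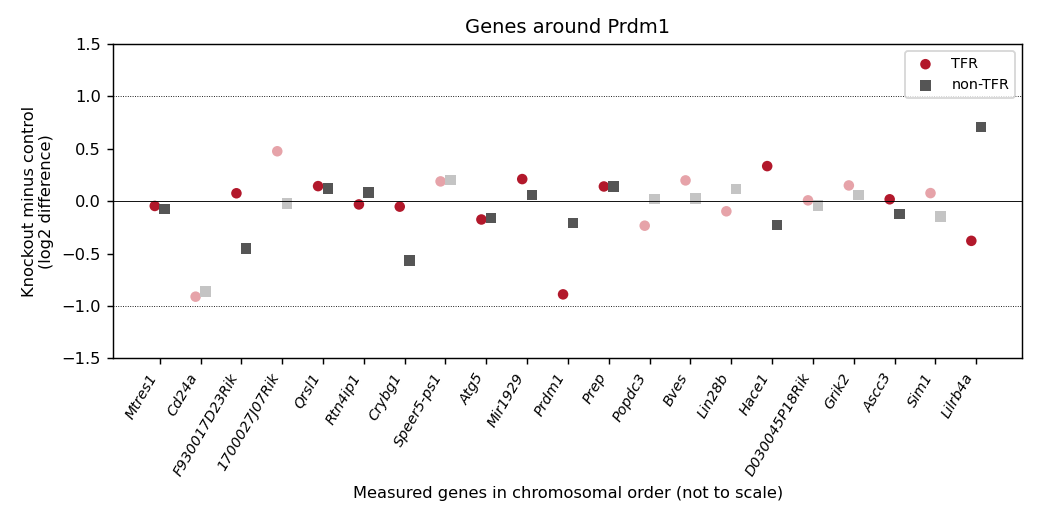
Knockout minus control log2 differences of Prdm1 and of the 10 measured genes on either side, in chromosomal order, for TFR cells (red circles) and non-TFR cells (grey squares); pale points are genes below the expression limit and dotted lines mark 2-fold. Prdm1 (-0.89 in TFR cells) and Cd24a (-0.91) lie lowest among them.

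MicroRNA genes were measured through probes for their precursors. Of 483 such genes 110 were expressed. Of these, 2 (1.82%) were at least 2-fold higher in knockout TFR cells and 0 lower, against 0.442% and 0.234% of all expressed genes. Below the limit in both TFR arrays, Mir1948 (-2.07), Mir103-2 (-1.37), Mir743 (-1.27), Mir296 (-1.26) and Mir450-1 (-1.16) were at least 2-fold lower. Mir3473c was at 8.17 and 9.43 (1.27) and Mir3066 at 6.07 and 7.28 (1.21). The SD of the differences was 0.39 for expressed microRNA genes and 0.27 for all expressed genes. The mature sequences from RefSeq are shown for these 2 genes, with the seed, bases 2 to 8, in capitals.
mmu-miR-3473c: uCUCUCCAgcccccauaauaag
mmu-miR-3066-5p: uUGGUUGCuguagauuaaguag
mmu-miR-3066-3p: cACUUAAUagaccgcaaccugc
The seeds differ from one another. In non-TFR cells both genes were lower in the knockout, by differences of -0.52 for Mir3473c and -0.18 for Mir3066, and the arrays do not show whether mature microRNAs changed.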

How the data were processed

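Per the labels' protocols, biotinylated cRNA of the sorted cells was measured on the Affymetrix array Mouse Gene 2.0 ST. The deposited table gives each probe of each array a log2 value computed by the authors, a scale read from the range of 2.23 to 13.8. MAS5 is named without version or role, per the submitters' processing notes. Background correction, summarization and genome build were not stated in the sources used here.

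Array medians differed by up to 0.10, and quantile normalization with limma 3.58.1 (R 4.3.3) was applied to all 41345 probes. Probes with 1 gene numbered 23521, with several genes 1814, and without a gene 16010; 23328 of the first matched the gene table by Entrez identifier. For 1082 genes with several probes the brightest was used. The mean over the arrays set the expression limit. The counting steps were tested on simulated data. Genes named were the 20 highest and 20 lowest expressed genes with ordinary symbols, list members that were 2-fold apart or largest in their list, whole receptor and granzyme families, the target and gate genes, and neighbours of Prdm1. Others, such as genes below the limit and some examples within lists, were named after their values were seen. Gate and target genes were left out of list medians. The members and lists were chosen with earlier results of these data known. Promoter and microRNA sequences are RefSeq's, on GRCm38.p6. The number of arrays limits the precision.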

Additional observations from a re-analysis of the deposited data

Results flagged for a closer look

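Some results ran in opposite directions in TFR and non-TFR cells, each with 1 array a group, so that the contrast between populations was not tested. Over all measured genes 64 were 2-fold higher and 36 2-fold lower in TFR cells, and 14 of these did so. Among expressed genes, 5 of the 49 higher genes were lower in non-TFR cells (10.2%, against 44.2% of all expressed genes). Of the 26 lower genes 2 were higher there (7.69%, against 55.7%). Opposite directions were thus less frequent among 2-fold genes than these shares. The gap is the TFR difference minus the non-TFR difference. Ctla2a differed by -1.26 in TFR cells and 0.42 in non-TFR cells, a gap of -1.68. The gap was -1.10 for Cish, 1.46 for Speer4a, 1.36 for Gm14327, 1.47 for Gm15363, 1.39 for Mir3066 and 1.79 for Mir3473c. Among genes below the expression limit it was 3.77 for Vwde, 1.43 for Ak4, 1.16 for Olr1, 1.47 for Olfr1416, -1.79 for Chp1, -1.87 for Mir103-2 and -1.47 for Mir450-1.

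List medians did so in 13 of the 32 lists. The effector Treg median was -0.09 in TFR cells and 0.49 in non-TFR cells, a gap of -0.57. The Treg core median was -0.28 and 0.17 (gap -0.45), that of suppressor mediators -0.39 and 0.06 (gap -0.45), and that of costimulatory receptors -0.11 and 0.27 (gap -0.38). The gap was -0.27 for inhibitory receptors, -0.25 for reported Blimp-1 targets, -0.16 for lineage transcription factors, -0.13 for gamma chain receptors and -0.12 for chemokine receptors. It was -0.028 for the interleukin-23, interleukin-12 and interleukin-6 receptors, 0.058 for oxidative phosphorylation, -0.056 for CD8 and NK markers and 0.18 for myeloid markers. Smaller opposite differences of single genes were not collected; Nkg7, at -0.96 and 0.43, is an example.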

How the results depend on the processing

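Among genes above the 75th percentile of brightness 8 were 2-fold higher and 14 lower, so the excess of higher genes turned; the other 8 settings gave 47 to 64 higher and 24 to 36 lower. In that brighter part the follicular median was 0.48. The naive and resting median was -0.48 there, over members above the median in the TFR arrays, over members above the median of all genes, and without members of another list; the last 2 settings were chosen after seeing the data. Of 339 list medians under other settings 25 moved by more than 0.1, all but 5 of them in other lists. Small medians changed sign among brighter genes for helper cytokines (-0.12) and chemokine receptors (0.23), and without shared members for gamma chain receptors (0.15) and germinal centre B markers (-0.06); lists with a median nearer 0 also did. The interleukin-1 family median was 0.08 without shared members. The 2-fold genes kept their direction under the 6 normalization, probe and floor settings, and without quantile normalization all 49 and 26 stayed 2-fold. With arrays centred on their 75th percentile 47 of the 49 stayed 2-fold. Of the 26, 25 did under cyclic loess normalization and 24 with the mean of all probes, where Sox4 differed by -0.54. No paired analysis was possible because each group had 1 array; no replicate could be left out. Dim values may be compressed.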

Other observations

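Probes without a gene in the annotation passed 2-fold more often than named genes. Of 6118 such probes above the expression limit 62 were higher and 148 lower in knockout TFR cells (3.43%), against 0.676% of expressed genes and 0.334% of 898 probes with several genes. Their identity was not stated in the sources used here.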
